A study of Mus musculus with 6 samples.

Results

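Immediate early and activator protein 1 (AP-1) genes were followed in hippocampal astrocyte libraries of mice with and without microglial ablation. The 10 genes, *Fos*, *Fosb*, *Fosl2*, *Jun*, *Junb*, *Jund*, *Egr1*, *Ier2*, *Atf3* and *Nr4a1*, were taken by name from the 24421 genes listed, and all 10 were found and passed the filter on low values. All mice were C57BL/6 and carried a diphtheria toxin receptor gene on both alleles of *Siglech* (Siglech dtr/dtr), a locus used in microglia, so the PBS controls had the same genotype as the treated mice. In the DT group diphtheria toxin was injected at 50 µg/kg, in the PBS group saline was injected, and hippocampi were taken 2 days later. Each of the 3 libraries per group came from 2 pooled mice. The tissue was dissociated with enzyme, cells bearing CD11b were depleted and astrocytes were captured with beads against ACSA-2. Per the study's methods the mice given PBS or DT were adult, males were used for in vivo work, and the 3 pools came from separate experiments. Libraries held 21704882 to 32933975 recovered reads.

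Immediate early genes are transcribed within minutes of a stimulus without new protein synthesis, through kinases that act on serum response factor and on CREB at their promoters. Fos family proteins pair with Jun family proteins to form AP-1, which binds DNA as a dimer, while Egr1 and Nr4a1 are a zinc finger factor and an orphan nuclear receptor induced in the same wave. In brain cells these transcripts mark recent activation, and they are also known to appear while tissue is being dissociated into single cells.

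The genes lie on 8 chromosomes of the mm10 build (GENCODE M21). *Fosb* is at chr7:19302696-19310051 and *Atf3* at chr1:191170296-191218039, both on the minus strand, and *Fos* is at chr12:85473890-85477273 on the plus strand. The promoter stretches of these 3 genes are shown because *Fosb* and *Atf3* were the members whose groups did not overlap and *Fos* is the member to which they were compared. Of the 10 genes, 8 were taken from the RefSeq promoter table (GRCm38.p6). It held no entry for *Ier2*, and *Egr1* was left out, so neither promoter was searched. Each stretch runs 5′ to 3′ on the gene's own strand through the bases before the start site, short of any annotated exon, and capitals mark TGACG, the core to which CREB and ATF proteins bind:
*Fosb*, chr7:19310052-19310295, minus strand: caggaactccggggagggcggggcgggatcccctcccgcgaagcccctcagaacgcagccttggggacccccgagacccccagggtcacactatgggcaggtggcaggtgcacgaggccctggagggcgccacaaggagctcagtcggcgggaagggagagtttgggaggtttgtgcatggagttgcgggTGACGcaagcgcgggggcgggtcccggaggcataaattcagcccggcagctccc
*Atf3*, chr1:191183341-191183583, minus strand: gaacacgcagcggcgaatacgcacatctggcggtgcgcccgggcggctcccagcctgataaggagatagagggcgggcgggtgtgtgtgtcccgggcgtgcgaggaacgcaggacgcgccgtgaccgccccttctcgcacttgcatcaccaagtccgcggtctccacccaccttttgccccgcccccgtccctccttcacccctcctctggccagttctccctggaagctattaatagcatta
*Fos*, chr12:85473640-85473889, plus strand: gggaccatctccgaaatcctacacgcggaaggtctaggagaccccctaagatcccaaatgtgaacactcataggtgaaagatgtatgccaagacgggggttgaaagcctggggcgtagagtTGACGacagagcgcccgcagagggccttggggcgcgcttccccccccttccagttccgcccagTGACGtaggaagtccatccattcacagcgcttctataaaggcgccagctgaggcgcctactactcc

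Within 250 bases before the start site, TGACG was found on either strand in 5 of the 8 members (*Atf3*, *Fos*, *Fosb*, *Junb* and *Nr4a1*) and in 17.8% of the 32851 promoters in the table. The *Fosb* stretch held 1 copy and the *Fos* stretch 2 copies. In *Atf3* the copy was the reverse complement and directly followed the last base shown, within bases that a transcript annotation covers. The *Atf3* start site used by RefSeq lies inside the annotated span of the gene, downstream of the start of its longest transcripts. *Nr4a1* held 4 copies, all as the reverse complement. The AP-1 letters TGANTCA, which share TGA with TGACG but hold no full copy of it, were in none of the 8 windows and in 6.75% of all promoters, and the CArG box of serum response factor was in none of the 8 and in 1.47% of all. Absence of these letters describes this window in these 8 genes alone.

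After DT, none of the 10 genes passed the threshold of an adjusted p under 0.05 in either direction (limma with a variance trend on log2(CPM + 0.1), Benjamini-Hochberg over 15137 genes). CPM values are a gene's reads scaled to a common library size. Over all genes, 84 (0.555%) were called higher and 24 (0.159%) lower. Of the members, 7 had a lower mean in DT and 3 a higher mean, and the median of their log2 fold changes was -0.11, against -0.0052 over all genes, of which 51.3% were lower. *Fosb* and *Atf3* had an unadjusted p under 0.05, both lower, as did 4.51% of all genes, or 10.4% in either direction. The same 2 genes were lower in every DT library than in any PBS library, as were 7.57% of all genes. None was higher without overlap, against 8.75% of all genes. edgeR's quasi-likelihood test called none of the 10 genes and DESeq2 called 1, *Fosb*. The p-values rest on the spread between pools of mice, which limma moderates towards that of genes at a similar level. The median within-group SD of the members was 0.234 on the log2 scale, against 0.111 for genes in their CPM range. For members with a wider spread, the SEs and p-values of limma are therefore smaller than their own spread alone gives.

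**Figure D1:**
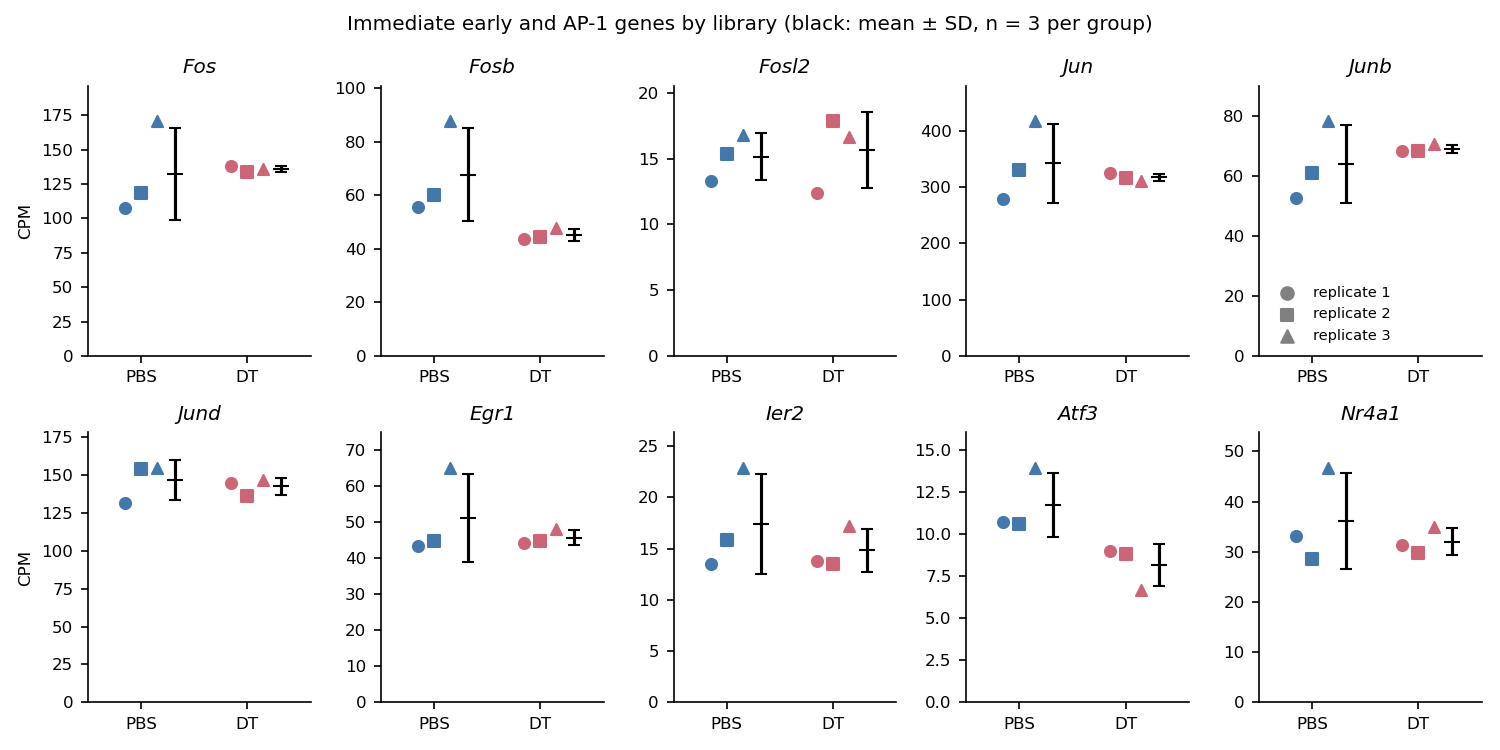
CPM of each of the 10 genes in the 6 libraries, PBS in blue and DT in red, with the replicate number by symbol and the mean ± SD (n = 3) in black. PBS replicate 3 is the highest library for 9 of the 10 genes, and the groups are apart for *Fosb* and *Atf3*.

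*Fosb* encodes a Fos family protein whose truncated product ΔFosB is known to accumulate in neurons with repeated stimulation. Its CPM was 55.5, 60.2 and 87.7 in PBS replicates 1 to 3 and 43.7, 44.3 and 47.9 in DT replicates 1 to 3. Every DT library was below every PBS library, and the DT libraries lay closer together. The log2 fold change was -0.55 (SE 0.15, 95% interval -0.90 to -0.20), a level of 0.682 times that of PBS (limma, adjusted p = 0.253). DESeq2 on the recovered reads called *Fosb* lower (log2 fold change -0.58, adjusted p = 0.0179), in a fit that called 0.647% of all genes lower. With edgeR's quasi-likelihood test the adjusted p was 0.251, and without PBS replicate 3 the log2 fold change was -0.35 (limma, adjusted p = 0.188).

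*Atf3* encodes a stress-induced ATF family protein that pairs with Jun proteins. PBS replicates 1 to 3 had 10.7, 10.6 and 13.96 CPM, and DT replicates 1 to 3 had 8.99, 8.84 and 6.72 CPM, from 154 to 352 reads per library. All DT values were below all PBS values. The log2 fold change was -0.52 (SE 0.17, 95% interval -0.91 to -0.13), a level of 0.698 times that of PBS (limma, adjusted p = 0.341). It was -0.39 without PBS replicate 3 (limma, adjusted p = 0.481) and -0.38 without DT replicate 3 (limma, adjusted p = 0.645).

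Microglial transcripts moved in the same direction as *Fosb* and *Atf3*. Of 17 microglia markers 9 were called lower (limma, adjusted p under 0.05; 4 without PBS replicate 2 or 3 and 5 without DT replicate 2), all 17 had a lower mean in DT, and their summed TPM, a level scaled for gene length and library size, ran from 345 to 434 in PBS and from 201.4 to 224.0 in DT. In bulk libraries fewer cells of a type and less RNA per cell cannot be told apart. The share of *Fosb* and *Atf3* reads that came from microglia was not tested. With the microglia marker level as a covariate, chosen after the values were seen, the log2 fold change was 1.21 for *Fosb* (SE 0.58, limma, adjusted p = 0.62) and 0.060 for *Atf3* (SE 0.93, limma, adjusted p = 0.99), in a fit where marker level and treatment cannot be told apart. *Siglech* was listed at 0 in every DT library and had 21 to 71 reads per PBS library. The 12 astrocyte markers were all detected, their summed TPM was 34357 to 35371 in PBS and 36447 to 39224 in DT, and limma and edgeR called *Gfap* alone, higher. DESeq2 also called *Atp1b2* higher (log2 fold change 0.29, adjusted p = 0.0232) and *Glul* lower (-0.25, adjusted p = 0.0156), and limma after quantile normalization called 1 astrocyte marker lower.

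*Fos*, the founding Fos family member, had 107.9, 118.8 and 170.8 CPM in PBS replicates 1 to 3 and 138.1, 134.0 and 136.0 in DT replicates 1 to 3. The DT libraries lay inside the PBS range. Its log2 fold change was 0.07 (95% interval -0.27 to 0.40, limma, adjusted p = 0.915), so a change of up to 1.32 times in *Fos* lies within the interval. *Fosl2*, a Fos family member with slower and longer-lasting induction, had 13.3, 15.4 and 16.8 CPM in PBS and 12.4, 17.8 and 16.7 in DT. Its groups overlapped, with a log2 fold change of 0.03 (SE 0.16, limma, adjusted p = 0.967).

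Of the Jun family, *Jun* is the strongest activator of transcription, *Junb* can oppose it, and *Jund* is expressed in most resting cells. *Jun* had 279.5, 330.3 and 417.3 CPM in PBS and 324.3, 317.0 and 310.4 in DT, a log2 fold change of -0.09 (SE 0.13, limma, adjusted p = 0.853). For *Junb* the values were 52.8, 61.2 and 78.4 CPM in PBS and 68.4, 68.3 and 70.7 in DT, a log2 fold change of 0.13 (SE 0.13, limma, adjusted p = 0.779). In both genes all DT libraries lay between the PBS extremes. *Jund* had 131.4, 153.9 and 154.7 CPM in PBS and 144.3, 136.2 and 146.4 in DT, with a log2 fold change of -0.04 (SE 0.08, limma, adjusted p = 0.898). *Jund* had the narrowest interval of the 10 genes, -0.22 to 0.13. In the annotation the *Junb* locus overlaps *Prdx2*, *Jun* overlaps *Junos*, *Jund* overlaps *Gm11175* and *Atf3* overlaps *Gm24748*. Each of these lies on the opposite strand, and reads were mapped with strand.

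The 3 other immediate early genes had log2 fold changes below 0 with intervals that spanned 0. *Egr1*, a zinc finger transcription factor, had 43.3, 44.8 and 65.0 CPM in PBS and 44.2, 44.7 and 48.1 in DT (log2 fold change -0.14, limma, adjusted p = 0.797). *Ier2*, a small nuclear protein induced by growth factors, had 13.5, 15.9 and 22.9 CPM in PBS and 13.7, 13.5 and 17.2 in DT (log2 fold change -0.21, limma, adjusted p = 0.765). *Nr4a1*, the orphan nuclear receptor also called Nur77, had 33.1, 28.5 and 46.8 CPM in PBS and 31.3, 29.8 and 35.0 in DT (log2 fold change -0.14, limma, adjusted p = 0.814). In each of these genes PBS replicate 3 was the highest library, and the other PBS libraries overlapped the DT libraries.

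PBS replicate 3 carried most of the spread in these genes. It was the highest of the 6 libraries for 9 of the 10 members, against 16.7% of all genes, and *Fosl2* was highest in DT replicate 2. The members in PBS replicate 3 were a median of 0.51 on the log2 scale above the mean of PBS replicates 1 and 2, a ratio of 1.43, against -8.5e-05 over all genes. By CPM the ratio ran from 1.08 in *Jund* to 1.56 in *Ier2*, with 1.51 in *Fos*, 1.52 in *Fosb* and 1.48 in *Egr1*. After *Jund*, the smallest ratio was 1.17 in *Fosl2*. The depth of that library, 21704882 reads, was close to the 22288052 reads of PBS replicate 1.

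The median within-group SD of the members was 0.234 on the log2(CPM + 0.1) scale, against 0.149 over all genes and 0.111 over the 9692 genes whose mean CPM lay in the members' range. Without PBS replicate 3 the members' median was 0.102, and the values of the other genes were not computed without that library. The SD was larger in PBS than in DT in 8 of 10 members, with medians of 0.308 and 0.0690, while 54.4% of all genes had the larger SD in PBS. *Fosl2* and *Atf3* were the exceptions, with DT SDs of 0.280 and 0.233. For *Fos* the SD was 0.349 in PBS and 0.0221 in DT. Whether 2 groups of 3 libraries differ in spread was not tested.

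**Figure D2:**
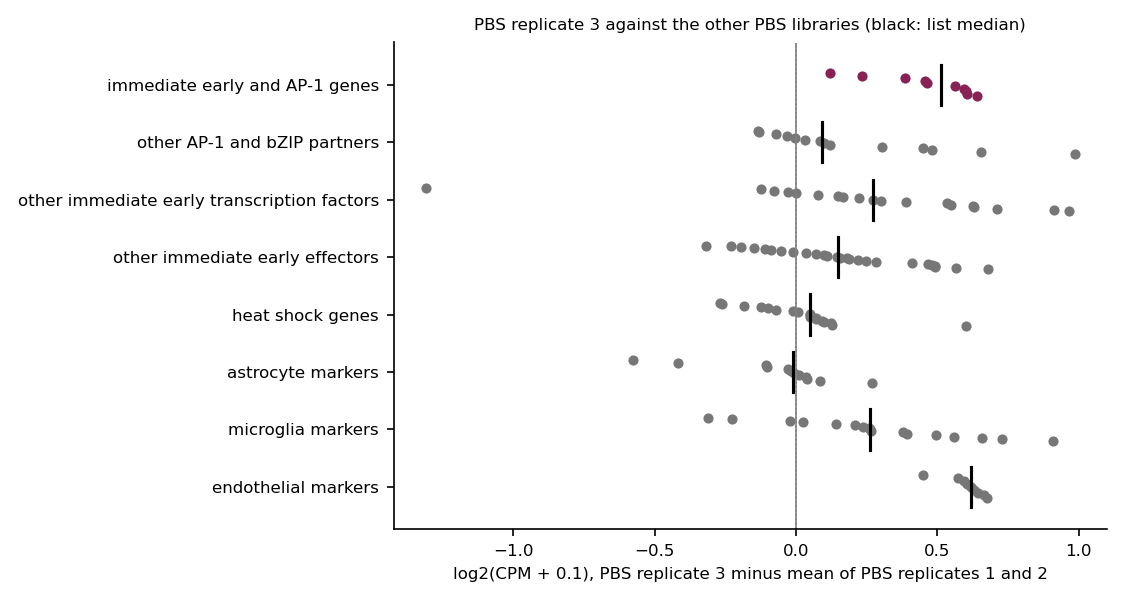
Each point is a gene, plotted by its log2(CPM + 0.1) in PBS replicate 3 minus the mean of PBS replicates 1 and 2, with list medians in black. The 10 immediate early and AP-1 genes (median 0.51) and the 9 endothelial markers (median 0.62) all lie right of 0, while the 12 astrocyte markers centre near 0.

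Endothelial transcripts were high in the same library. All 9 endothelial markers were highest in PBS replicate 3, by a median of 0.62 on the log2 scale, and their summed TPM was 695, 800 and 1109 in PBS replicates 1 to 3 and 596, 623 and 715 in DT replicates 1 to 3. *Cldn5*, *Pecam1* and *Flt1*, of endothelial junctions and VEGF signalling, were lower in every DT library than in any PBS library, as were 7.57% of all genes. No endothelial marker passed the threshold with limma or edgeR, with 4 at an unadjusted p under 0.05 (10.4% of all genes), while DESeq2 called *Cldn5*. The median log2 fold change of the 9 markers was -0.38, and -0.18 without PBS replicate 3. Their part in the members' values was not tested beyond a fit with the endothelial level as a covariate, chosen after the values were seen, in which the log2 fold change of *Fosb* was -0.19 (limma, adjusted p = 0.389). Other lists were also above the other PBS libraries there, by a median of 0.59 for border macrophage markers, none of them highest in that library, 0.27 for pericyte, 0.26 for microglia and 0.17 for neuron markers, and 9 of 17 microglia markers were highest in it. Oligodendrocyte markers and choroid plexus and ependymal markers were below, by -0.44 and -0.24. Heat shock genes were highest in PBS replicate 3 for 2 of 18 genes, with a median difference of 0.05 and 0.60 for *Hspb1*. Whether handling differed between the libraries was not tested.

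Without PBS replicate 3, 8 members had a higher and 2 a lower mean in DT, and their median was 0.05 on the log2 scale. None of the 10 was called (limma). *Fosb* and *Atf3* stayed below PBS without overlap, in a comparison where 14.9% of all genes did so. *Fos* and *Junb* were then above PBS without overlap, as were 14.4% of all genes. The log2 fold change of *Fos* was 0.26 (SE 0.07, limma, adjusted p = 0.236) and that of *Junb* 0.28 (SE 0.08, limma, adjusted p = 0.313).

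**Figure D3:**
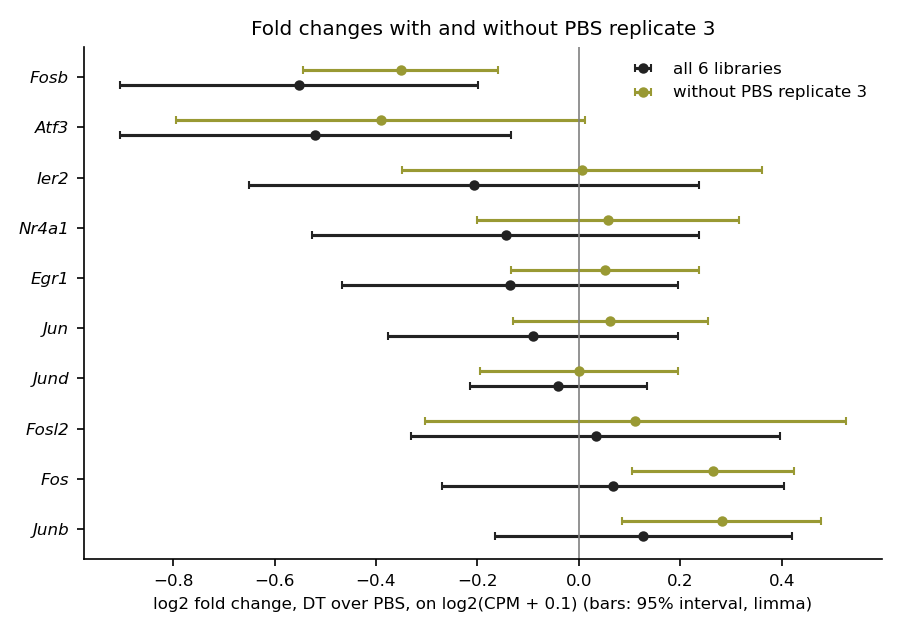
Log2 fold change of DT over PBS for each gene with its 95% interval (limma), from all 6 libraries in black and without PBS replicate 3 in olive. *Fosb* lies below 0 with both intervals and *Atf3* with the interval from all 6 libraries. Without PBS replicate 3 the intervals of *Fos* and *Junb* lie above 0. *Jun*, *Jund*, *Egr1*, *Ier2* and *Nr4a1* pass from below 0 to at or above it without that library. The intervals are unadjusted, and no gene was called in either fit.

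The members followed each other across libraries to different degrees. Over the 6 libraries, which share the treatment, the Pearson r of a gene's log2(CPM + 0.1) with the mean standardised profile of the other 9 was 0.97 for *Egr1*, 0.95 for *Jun*, 0.94 for *Ier2* and 0.83 for *Fos*. It was 0.46 for *Atf3* and 0.39 for *Fosl2*. Of 11782 other genes whose CPM averaged 5 or more, the 10 most like the members' mean profile had r from 0.963 to 0.981 and included *Hspa12b*, *Fam32a*, *Lcor*, *Dhx40*, *Me3*, *Dok4*, *Asb8* and *Aarsd1*. With 6 points, such values are a description of the libraries.

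Relative to *Fos* in the same library, *Fosb* separated the groups with little spread. The ratio of *Fosb* to *Fos*, each in TPM and so per length, was 0.285, 0.281 and 0.285 in PBS replicates 1 to 3 and 0.175, 0.183 and 0.195 in DT replicates 1 to 3. PBS replicate 3, high in both genes, had the same ratio as PBS replicate 1. The mean ratio was 0.284 ± 0.00236 in PBS and 0.185 ± 0.0101 in DT (SD, n = 3), a log2 difference of -0.62. This ratio was chosen after the values were seen. In a fit with the *Fos* level as a covariate, also chosen then, *Fosb* was called lower (log2 fold change -0.62, SE 0.07, limma, adjusted p = 0.0129), as were 0.205% of all genes in that fit, and no other member was called.

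**Figure D4:**
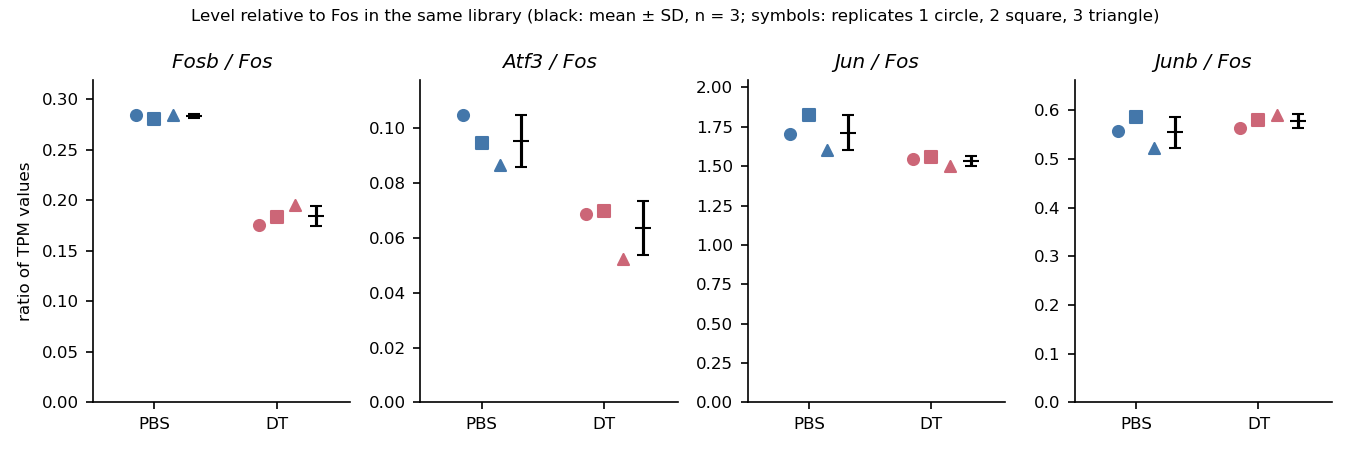
Ratio of TPM values of *Fosb*, *Atf3*, *Jun* and *Junb* to *Fos* in each library, with the mean ± SD (n = 3). The *Fosb* ratio is near 0.284 in PBS and 0.185 in DT, while the *Junb* ratio overlaps between the groups.

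Ratios of other members to *Fos* moved less or varied more. The ratio of *Atf3* to *Fos* was 0.0954 ± 0.00931 in PBS and 0.0636 ± 0.00993 in DT, without overlap. For *Jun* it was 1.71 ± 0.111 and 1.53 ± 0.0295, and for *Egr1* 0.263 ± 0.00872 and 0.229 ± 0.0115, also without overlap (SD, n = 3). With *Fosb* these were 4 of the 9 members, all lower, against 2.95% of all genes with a ratio to *Fos* that was lower without overlap and 2.85% higher. The ratio of *Junb* was 0.555 ± 0.0320 in PBS and 0.578 ± 0.0139 in DT, with overlap. The ratios of *Jund* (0.829 ± 0.1503 and 0.761 ± 0.0218), *Ier2* (0.180 ± 0.00668 and 0.1495 ± 0.0211), *Nr4a1* (0.231 ± 0.0281 and 0.199 ± 0.0161) and *Fosl2* (0.0417 ± 0.00582 and 0.0410 ± 0.00817) also overlapped. The ratios were set side by side after the values were seen. All of these share *Fos* as the divisor and so are not independent of each other. A gene that does not follow *Fos* across libraries takes on the PBS spread of *Fos* in its ratio. Members that rose with *Fos* in PBS replicate 3 do not, so their count and the share of all genes are not a like comparison. In CPM, 2 of the 10 members and 7.57% of all genes were lower without overlap.

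By level per length, *Jun* was the most abundant member in every library, with a mean of 315 TPM in PBS and 294 TPM in DT, and *Fosl2* the least, with 7.56 and 7.87 TPM. *Fos* followed *Jun*, at 185 and 192 TPM. *Fosb* was above *Egr1* in each PBS library (42.2 against 40.5, 47.4 against 43.4 and 68.1 against 62.1 TPM) and below it in each DT library (33.4 against 41.5, 35.2 against 43.7 and 37.7 against 46.5 TPM). The order of this pair, picked after the values were seen, was therefore opposite in the groups. It restates the lower *Fosb* level and is not a separate result.

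The 6 Fos and Jun family genes summed to 663, 791 and 982 TPM in PBS replicates 1 to 3 and to 776, 789 and 794 TPM in DT replicates 1 to 3. The DT sums lay within the PBS range. *Jun* made up 38.7% ± 0.586 of the sum in PBS and 37.4% ± 0.821 in DT, *Fos* 22.7% ± 1.53 and 24.4% ± 0.122, and *Jund* 18.7% ± 2.27 and 18.6% ± 0.520 (SD, n = 3). *Junb* made up 12.6% ± 0.145 in PBS and 14.1% ± 0.271 in DT, and *Fosb* 6.44% ± 0.473 and 4.51% ± 0.226 (SD, n = 3). The Fos family together held 30.1% ± 1.93 in PBS and 29.9% ± 0.256 in DT, so its summed share differed by less than the spread. Within it the *Fos* share overlapped between the groups, at 21.35 to 24.35% in PBS and 24.32 to 24.55% in DT. Shares of the same sum are tied to each other.

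**Figure D5:**
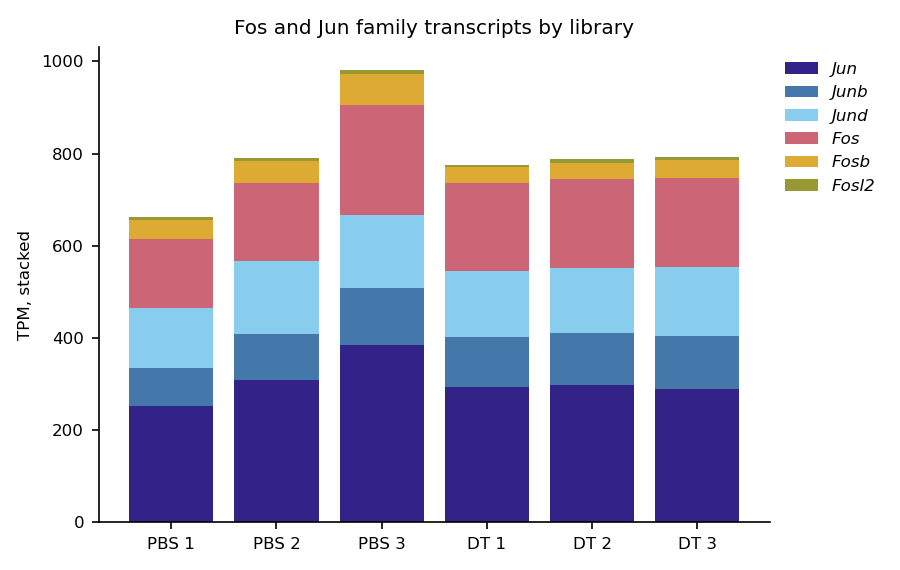
Stacked TPM of the 3 Jun and 3 Fos family genes in each library. PBS libraries sum to between 663 and 982 TPM and DT libraries to between 776 and 794 TPM, and the *Fosb* band is thinner in the DT libraries.

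Partners and other genes of the same pathways were read against the members. None of 14 other AP-1 and bZIP partners was called (limma, edgeR or DESeq2), 4 had an unadjusted p under 0.05 (limma) against 10.4% of all genes in either direction, and the median log2 fold change was 0.05. *Maff*, a small Maf protein, differed by 0.93 on the log2 scale (3.60 ± 1.58 CPM in PBS, 6.62 ± 0.764 in DT, SD, n = 3, adjusted p = 0.291), and *Maf* by 0.46 (adjusted p = 0.282).

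None of 19 other immediate early transcription factors was called (limma or edgeR), 5 had an unadjusted p under 0.05 (limma; 10.4% of all genes), and the median was 0.07. Log2 fold changes were -0.58 for *Klf4*, also known as an endothelial factor (adjusted p = 0.337), -0.46 for *Hes1*, a Notch target (adjusted p = 0.0765), and 0.25 for *Bhlhe40*, a clock-linked repressor (limma, adjusted p = 0.189), and DESeq2 called these 3. None of 26 immediate early effectors was called (limma, edgeR or DESeq2) and 6 had an unadjusted p under 0.05 (10.4% of all genes), among them *Btg2*, an antiproliferative gene, at -0.43, *Gadd45a* at 0.46 and *Ier3* at 0.43 on the log2 scale. *Klf4* and *Btg2* were, like most members, higher in PBS replicate 3 than in the other PBS libraries, by 0.71 and 0.49 on the log2 scale. *Hes1* (0.22) and *Ier3* (0.25) were above the mean of the other PBS libraries there, and *Bhlhe40* (-0.13) and *Gadd45a* (-0.05) below. That library was the highest for 7 of 19 factors (median difference 0.27), 7 of 26 effectors (0.15) and 2 of 14 AP-1 and bZIP partners (0.09), against 16.7% of all genes.

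Negative regulators and upstream kinases gave no call either (limma, edgeR or DESeq2). Among 16 MAP kinase phosphatases and Sprouty genes 3 had an unadjusted p under 0.05 (10.4% of all genes) and the median was -0.0055. These were *Dusp6*, which switches off ERK, at -0.30, *Spred1* at -0.17 and *Dusp10* at 0.64, the last outside the naming rule and added after its value was seen. *Dusp14* stood at 0.34 (limma, adjusted p = 0.611). It was higher in DT without overlap, as were 8.75% of all genes, with 6.07, 5.78 and 9.38 CPM in DT replicates 1 to 3. Among 32 upstream kinases and SRF, TCF and CREB factors none had an unadjusted p under 0.05 and the median was -0.03, with *Mapk8*, the gene of JNK1, at 0.14 and *Elk1*, a partner of serum response factor, at -0.21. None of the 18 heat shock genes was called by these tools, 4 had an unadjusted p under 0.05 (10.4% of all genes), and *Hsp90aa1*, *Hsph1* and *Dnajb5* had log2 fold changes of 0.25, 0.24 and 0.27.

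Genes that textbooks list as AP-1 targets differed from the members in their counts. Of 22 listed, 17 passed the filter on low values and 3 were at 0 in every library. Of the 17 tested, 5 were called higher and none lower (limma, adjusted p under 0.05), against the 0.555% of all genes called higher. The list was written with earlier results of these data known, so this contrast is not independent of them. The median was 0.29 on the log2 scale and did not change with *Timp1* at its bound. *Timp1*, an inhibitor of matrix proteases, was listed at 0 in every PBS library and had 3.54, 2.89 and 2.97 CPM in DT, at least 25.6-fold higher against 3 reads per library. On the log2 scale *Cd44*, a hyaluronan receptor, was higher by 1.75 (limma, adjusted p = 0.000881) and *Plau*, the urokinase protease, by 1.58 (limma, adjusted p = 0.00592).

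*Ccl2*, a monocyte-attracting chemokine, was higher by 2.74 on the log2 scale (limma, adjusted p = 0.0314), and *Hmox1*, the heme-degrading enzyme, by 1.08 (limma, adjusted p = 0.0379). Both calls were lost without the variance trend and on leaving out PBS replicate 2 or any DT library, which left 3 of the targets called. *Hmox1* was also lost without PBS replicate 3, with the replicate block and with no filter on low values, and *Ccl2* with TPM, which left 4 in each case. With the endothelial marker level as a covariate *Plau*, *Hmox1* and *Ccl2* were not called, with the *Fos* level as a covariate *Hmox1* was not, and with the microglia marker level none of the 5 was. *Timp1* fell under the filter at a mean of 2 CPM. Border macrophage markers rose in 3 of 8 genes (*Mrc1*, *Lyve1* and *F13a1*; limma, and in 5 without PBS replicate 3), from summed TPM of 24.4 to 39.5 in PBS to 71.8 to 93.1 in DT, and their part in the target genes' values was not tested.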

How the data were processed

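RNA-seq libraries of ACSA-2 bead-isolated hippocampal astrocytes were compared, 3 PBS and 3 DT. Per the labels and methods, the authors trimmed reads with Trim Galore 0.5.0, checked them with FastQC 0.11.8, mapped them to mm10 with HISAT2 2.1.0 using strand, removed rDNA reads with bedtools 2.25.0, quantified genes with StringTie 1.3.5 and ran edgeR 3.24.3 in R 3.5.1. The deposited signal values are CPM on scaled library sizes (factors 0.974 to 1.02), so column sums differ. The deposited TPM values are also scaled for gene length. The deposited columns of fold changes, p-values and q-values from the authors' own comparison were not used.

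Within 0.1 read, 100% of low CPM values (up to 100 reads) were whole multiples of 1 read, so reads were recovered. The unit is therefore scaled CPM and the main test stayed on the log scale: limma 3.58.1 (R 4.3.3) with a variance trend on log2(CPM + 0.1), two-sided, for genes averaging 0.5 CPM or more, with no covariate and Benjamini-Hochberg adjustment over 15137 genes. Fold changes on this scale understate low genes. edgeR 4.0.16 and DESeq2 1.42.0 on recovered reads, TPM, other pseudocounts, filters and scalings, the replicate block and leaving out each library were alternatives. Scripts were tested on simulated data. Levels between genes were compared in TPM. Depth was 21704882 to 32933975 reads, and counts cover counting error only.

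The 10 members and all gene lists were chosen with earlier results of these data known. Named genes were all members; of each other list, called genes and the 3 largest fold changes among genes averaging 5 CPM or more whose groups did not overlap; and the 10 genes most like the members. Some genes that this rule names are not reported here. Of the pericyte (6 tested), neuron (12) and oligodendrocyte (9) markers none was called with limma, edgeR or DESeq2 (1, 0 and 1 at an unadjusted p under 0.05 with limma). Of 10 choroid plexus and ependymal markers none was called with limma or edgeR and 1 with DESeq2 (7 at an unadjusted p under 0.05, median log2 fold change 0.60).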

Additional observations from a re-analysis of the deposited data

How the results depend on the processing

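No member was called in any alternative analysis without a covariate, except *Fosb* with DESeq2 (log2 fold change -0.58, adjusted p = 0.0179, 1 member lower). With the *Fos* level as a covariate, chosen after seeing the data, *Fosb* was also called (-0.62, limma, adjusted p = 0.0129). Over its 19 alternatives the adjusted p of *Fosb* ran from 0.0129 to 0.62. Over all genes, 35 were higher and 11 lower without the variance trend and 227 and 98 with DESeq2.

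Leaving out 1 library at a time gave 39 to 72 genes higher and 9 to 20 lower. It moved the log2 fold changes over -0.066 to 0.26 for *Fos*, -0.68 to -0.35 for *Fosb*, -0.071 to 0.19 for *Fosl2*, -0.23 to 0.062 for *Jun*, -0.0030 to 0.28 for *Junb*, -0.12 to 1.6e-05 for *Jund*, -0.24 to 0.052 for *Egr1*, -0.37 to 0.0064 for *Ier2*, -0.59 to -0.38 for *Atf3* and -0.30 to 0.058 for *Nr4a1*. The sign changed for *Jun*, *Jund*, *Egr1*, *Ier2* and *Nr4a1* without PBS replicate 3, for *Fos*, *Fosl2* and *Junb* without PBS replicate 1, and for *Fosl2* also without DT replicate 2 or 3. The median within-group SD ran from 0.102 without PBS replicate 3 to 0.261.

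Fits with marker levels as covariates were added after seeing the data. With endothelial markers the log2 fold change was 0.16 for *Jun*, 0.055 for *Jund*, 0.19 for *Egr1*, 0.23 for *Ier2* and 0.20 for *Nr4a1*, turned from below 0, and 0.39 for *Fos* (SE 0.10, limma, adjusted p = 0.193), 0.40 for *Junb* (SE 0.091, limma, adjusted p = 0.154) and 0.24 for *Fosl2*, none of them called. With microglia markers it was 1.21 for *Fosb* (SE 0.58, limma, adjusted p = 0.62), 1.48 for *Jun*, 0.80 for *Jund*, 1.39 for *Egr1*, 2.06 for *Ier2*, 0.060 for *Atf3* (SE 0.93) and 1.01 for *Nr4a1*, all turned from below 0 and none called. Summed microglia markers did not overlap between the groups, so in that fit the covariate and the treatment cannot be told apart.

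Same-numbered libraries had correlations of their deviations of 0.22, -0.12 and 0.20 over 11792 genes, replicates 1 and 3 correlating best with their own number and replicate 2 not. The pools came from 3 experiments, the labels do not say whether a number marks one, and a pairing was therefore not established. Taking the replicate number as a replicate block gave 79 higher and 30 lower genes, and *Fosb* had an adjusted p of 0.0974 (limma). With 3 libraries per group, a *Fosb* difference of -0.55 (SE 0.15) was not called by limma.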
